A study of Mus musculus with 24 samples.

Results

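H3K4me3, the trimethylation of lysine 4 on histone H3, marks the start of active and poised genes, and its regions tend to be broad where a gene is strongly or steadily used. Tandem ChIP (tChIP) first pulls down chromatin that carries a FLAG-tagged histone H2B and then pulls down H3K4me3 from that chromatin, whereas single ChIP takes H3K4me3 from the whole lysate. The 433 regions described here gave less H3K4me3 signal in tChIP than in single ChIP in 2 mouse lines at once. They were chosen by their measured values, from 17993 regions counted in the cerebral cortex. Counts were scaled to a library total of 1000000 (CPM), and a region was taken when it lay on chromosomes 1 to 19, held 10 or more counts in each of the 12 libraries, and had a log2 ratio of mean tChIP CPM to mean single ChIP CPM of -0.3 or less in each line. Of 17374 regions on these chromosomes, 14679 met the count minimum and are called eligible below.

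Both lines were C57BL/6 mice that carried the FLAG-tagged human histone H2BJ (H2B-FLAG) at Rosa26 behind a CAG promoter. In Rosa H2B-FLAG mice (Rosa CAG-H2B-FLAG), the floxed stop had been removed by Vasa-Cre, so the tag was made constitutively in nearly all cells, glia included. In Camk2a H2B-FLAG mice (Rosa26 CAG-floxed-pA-H2B-FLAG/ CaMKCreERT2), the tag was switched on by a tamoxifen-dependent Cre under the Camk2a promoter, which is active in excitatory neurons, with 1 mg of tamoxifen a day for 5 days at 8 weeks of age and the cortex taken about a month later. The mice given tamoxifen were males. The study's methods give no tamoxifen treatment, exact age or sex for the Rosa mice. A difference between the lines therefore cannot be told apart from one of Cre driver, tamoxifen, age or sex. Each line gave 3 single ChIP and 3 tChIP libraries, from lysates of 2 pooled animals. In Rosa cortex part of the tagged protein ran as a second band, presumed by the study to carry an N-terminal extension encoded by the loxP sequence. The single ChIP libraries drew on all cortical cells in either line, so only the tChIP libraries were restricted by the Cre driver. In bulk tissue, fewer cells carrying a mark and less mark per cell cannot be told apart.

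Library totals were 6316125 to 8644574 counts for Rosa single ChIP, 1457261 to 1828371 for Rosa tChIP, 4063200 to 4233144 for Camk2a single ChIP and 2709729 to 3049130 for Camk2a tChIP. The Rosa tChIP libraries were therefore the shallowest, with a median of 106 to 130 counts per selected region, against 621 to 840 in Rosa single ChIP. Replicate pairs differed by 1.03 to 1.09 times the chi-square per degree of freedom expected from counting alone, a little over 1 in each of the 4 groups with no pair apart, so all 12 libraries were counted. The labels do not say that replicates came from separate animals, and p-values measure the spread between these libraries, which may be technical. As a check of tissue and driver, the summed CPM over 15 start regions of excitatory neuron genes was 1718 to 1745 in Rosa single ChIP, 1075 to 1182 in Rosa tChIP, 1730 to 1767 in Camk2a single ChIP and 2167 to 2241 in Camk2a tChIP. Over 11 start regions of oligodendrocyte lineage genes the corresponding ranges were 594 to 609, 518 to 569, 553 to 575 and 316 to 334. For other cell types Rosa tChIP was above Rosa single ChIP. Mean sums were 1041 against 856 CPM for astrocytes, 565 against 485 for inhibitory neurons and 603 against 409 for endothelial and mural cells. The 1 microglia region held 30.9 against 18.1 CPM.

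To show the range of sequence among the selected regions, the 150 bases upstream of an annotated start site are given for 5 genes, read from the mm9 (NCBIM37) genome, 5′ to 3′ on the strand of the gene, with each CpG in capitals. The first set comes from broadly expressed genes with a high CpG density: Irf2bp2 (a transcriptional corepressor, chr8:129117337-129117486, minus strand, 31 CpGs) and Qk (the RNA-binding protein quaking, chr17:10513095-10513244, minus strand, 15 CpGs). These genes were picked after their values had been seen.
Irf2bp2: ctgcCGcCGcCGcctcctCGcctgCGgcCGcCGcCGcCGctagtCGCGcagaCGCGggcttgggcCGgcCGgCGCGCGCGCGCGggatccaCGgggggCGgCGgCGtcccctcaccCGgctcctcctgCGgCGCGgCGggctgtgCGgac
Qk: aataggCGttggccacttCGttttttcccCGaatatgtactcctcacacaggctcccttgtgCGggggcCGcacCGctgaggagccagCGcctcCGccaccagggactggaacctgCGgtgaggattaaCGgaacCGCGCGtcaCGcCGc

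The second set comes from genes of particular cell types, in which the 2 lines differed in tChIP as described further below: Ermn (ermin, a myelin cytoskeletal protein, chr2:57905276-57905425, minus strand, 2 CpGs), Il33 (an alarmin cytokine, chr19:29999454-29999603, plus strand, 3 CpGs) and Gpm6a (a neuronal membrane glycoprotein, chr8:56039931-56040080, plus strand, 1 CpG). For Ermn and Il33 the H3K4me3 region began at or just before the start site, so that most of this window lay outside it.
Ermn: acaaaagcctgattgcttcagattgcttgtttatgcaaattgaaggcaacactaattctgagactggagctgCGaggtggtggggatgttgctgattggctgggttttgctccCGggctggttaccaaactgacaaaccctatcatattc
Il33: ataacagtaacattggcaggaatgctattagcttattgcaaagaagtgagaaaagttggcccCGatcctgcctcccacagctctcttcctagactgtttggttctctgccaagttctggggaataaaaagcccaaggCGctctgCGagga
Gpm6a: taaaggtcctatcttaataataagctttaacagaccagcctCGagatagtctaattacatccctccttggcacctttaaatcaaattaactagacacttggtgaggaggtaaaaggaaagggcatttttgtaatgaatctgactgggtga

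The ratios that chose the regions are given as a description without a test. Of the 14679 eligible regions, 1733 (11.8%) were at or under -0.3 in Rosa, 2469 (16.8%) in Camk2a and 433 (2.95%) in both lines, so that the shared set was 24.99% of the Rosa set and 17.5% of the Camk2a set. The median log2 ratio of the 433 was -0.40 in Rosa (lowest -1.15) and -0.44 in Camk2a (lowest -2.53), where the medians over eligible regions were 0.04 and -0.02. Most of them lay close to the boundary, with 94 at or under -0.5 in Rosa, 128 in Camk2a and 46 in both. The 3 tChIP libraries were all below the 3 single ChIP libraries for 415 of the 433 in Rosa and for 421 in Camk2a, a separation that the selection itself favours. Over all eligible regions the same held for 24.6% in Rosa and 30.7% in Camk2a. The Camk2a ratio was within 0.2 of the Rosa ratio for 358 of the 433, and it was lower by 1 or more for 10. The 433 regions took 4.98% ± 0.02 of all counts in Rosa single ChIP and 3.72% ± 0.02 in Rosa tChIP (SD, n = 3), and 4.86% ± 0.03 and 3.53% ± 0.02 in the Camk2a libraries. Scaling with TMM factors in place of library totals moved the median Rosa ratio of eligible regions by -0.11 and the Camk2a one by -0.02, and 840 regions then passed, all 433 among them.

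**Figure D1:**
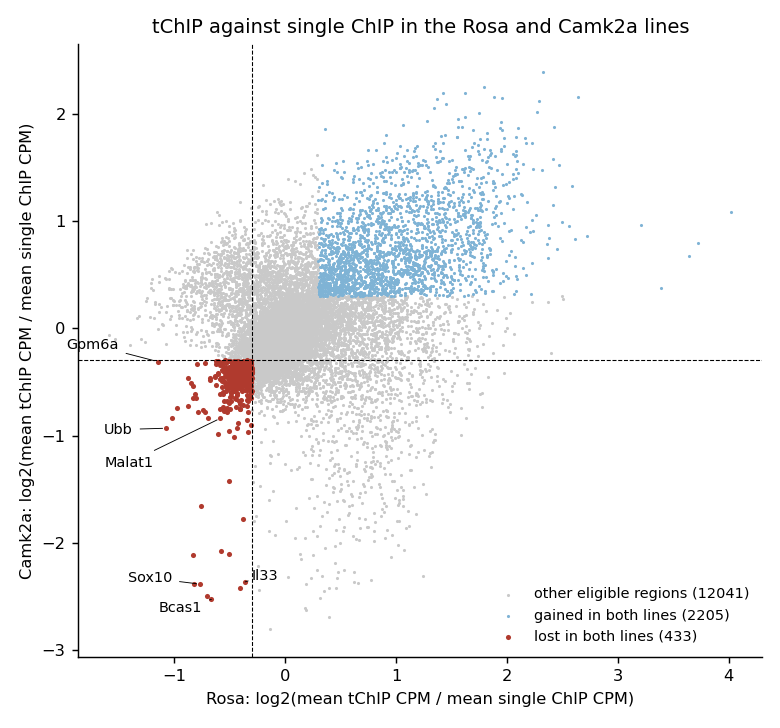
Log2 ratio of mean tChIP CPM to mean single ChIP CPM for each of the 14679 eligible regions, in Rosa (horizontal) and in Camk2a (vertical), with dashed lines at -0.3. The 433 selected regions (red) fill the lower left corner, mostly near the boundary, and a small group that includes Bcas1, Sox10 and Il33 lies below -2 in Camk2a, and 2205 regions at 0.3 or more in both lines are shown in blue.

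At the boundary, the regions just inside were those of Pdp1 (a pyruvate dehydrogenase phosphatase), with ratios of -0.54 in Rosa and -0.30 in Camk2a, and Slc35e3, with -0.30 and -0.40. Those just outside were Arl4a (-0.30 and -0.55) and Magohb (-0.31 and -0.30), whose limiting ratios equal those of Pdp1 and Slc35e3 to 2 decimals. The lowest limiting ratio of all belonged to Ubb, a polyubiquitin gene (chr11:62364678-62365768, 1091 bp). Its region held 53.6, 56.2 and 56.8 CPM in the Rosa single ChIP libraries and 23.0, 25.5 and 30.9 CPM in Rosa tChIP. In Camk2a it held 49.4, 51.0 and 51.2 CPM in single ChIP and 25.6, 28.4 and 25.5 CPM in tChIP. Both lines thus gave about the same level after tChIP, 26.5 ± 4.04 and 26.5 ± 1.68 CPM (SD, n = 3), and tChIP and single ChIP did not overlap in either. Reads from polyubiquitin repeats and from processed copies of abundant genes can be placed at more than 1 site, so values for Ubb, Eef1a1 and Fth1 carry that uncertainty.

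Annotation placed 374 of the 433 regions (86.4%) over the start of a protein-coding gene, 12 over the start of a noncoding gene alone, 7 on exons and 4 in introns away from any start, and 36 (8.31%) between genes. Among eligible regions 82.0% lay over a protein-coding start, and among the 2205 regions gained by tChIP in both lines (log2 ratio of 0.3 or more in each) 52.4% did. The count minimum left out 86 further autosomal regions past both limits, and of these 14 lay over a protein-coding start. The 374 regions covered the starts of 403 protein-coding genes, and Brd2, Epc1, Klf7, Mrpl48 and Nbr1 had more than 1 selected region each. For Klf7, a zinc finger transcription factor of neurons, these were a region of 5237 bp (ratios -0.37 and -0.46) and one of 1019 bp beside it (-0.88 and -0.73). Selected regions occurred on all 19 autosomes, at 1.57% of eligible regions on chromosome 5 to 3.95% on chromosome 6. At the stricter limit of -0.5 the share over any start was 76.1% of 46 regions, against 89.1% of the 433.

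At the median, and among regions that met the count minimum, the selected regions were wider and taller than eligible regions. Their median width was 2435 bp, against 1978 bp for eligible regions and 1133 bp for regions gained in both lines, and 72 of 433 (16.6%) were wider than 4000 bp, against 7.70% of eligible regions. Of the 3669 widest eligible regions (2729 bp or more), 4.77% were selected, and of the 3672 narrowest (1415 bp or less) 1.93%. From the start site they reached a median of 1816 bp downstream and 643 bp upstream, where eligible regions reached 1460 bp and 587 bp. Their median Rosa single ChIP level was 96.7 CPM, or 39.9 CPM per kb of region, against 57.2 CPM and 27.1 CPM per kb for eligible regions. Single ChIP levels entered the selection as the denominator and are a description only. The regions lost in Rosa alone (1300) were wider still, with a median of 3131 bp, and those lost in Camk2a alone (2036) were narrower, at 1884 bp. The count minimum also bears on width and height, because a low region that loses signal in tChIP can fall under it. The 86 autosomal regions past both limits but under the minimum had a median width of 487 bp. Of the 3670 eligible regions lowest in Rosa single ChIP, 0.926% were selected and 49.5% were gained in both lines.

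Base composition took no direct part in the selection. The median GC content was 50.9% in the selected regions, 54.1% in eligible regions and 58.3% in regions gained in both lines. The median CpG observed over expected ratio, the number of CpGs relative to that implied by the C and G content, ran the other way and was 0.70, 0.60 and 0.58. It was 0.51 in regions lost in Rosa alone and 0.62 in those lost in Camk2a alone. Their median GC contents were 52.1% and 52.4%, also under that of eligible regions. The median number of CpGs per 100 bp was 4.50 in the selected regions, 4.33 in eligible regions and 4.77 in regions gained in both lines. Of eligible regions with both a GC content under the median and a CpG ratio at or above it, 7.26% were selected (233 of 3209), and these made up 53.8% of the 433. Where GC content was at or above the median and the CpG ratio under it, 0.499% were selected (16 of 3209). At the stricter limit of -0.5 the median CpG ratio was 0.63, closer to that of eligible regions. The 86 autosomal regions past both limits but under the count minimum had a median CpG ratio of 0.30. No test was run across regions, which are not replicates.

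**Figure D2:**
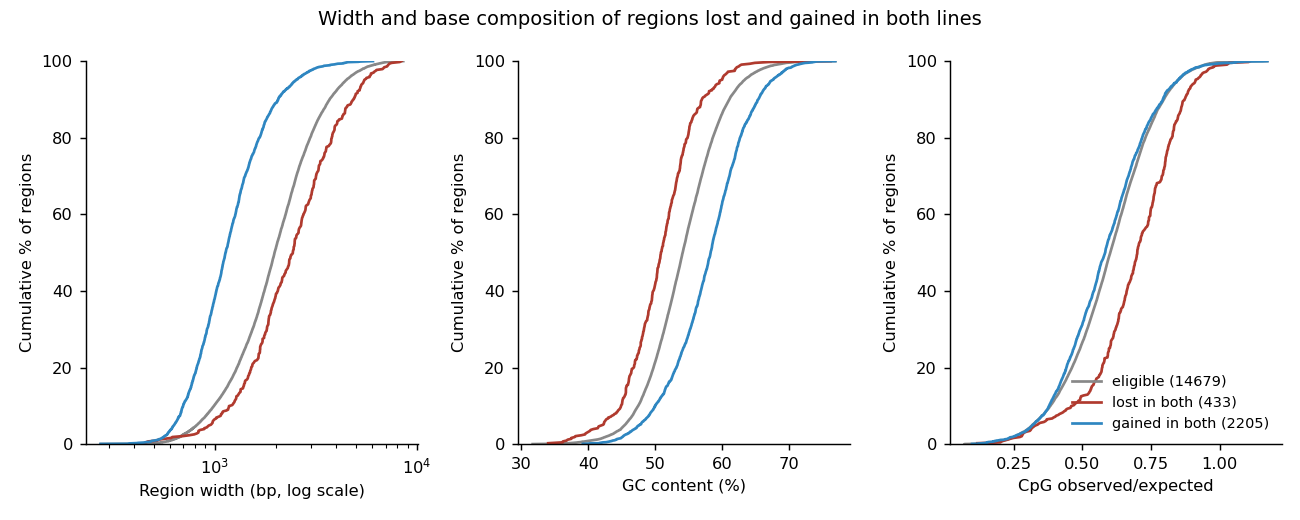
Cumulative percentage of regions by width in bp (log scale), GC content in percent and CpG observed over expected ratio, for eligible regions (grey, n = 14679), regions lost in both lines (red, n = 433) and regions gained in both lines (blue, n = 2205). The red curve lies to the right of the grey one for width (medians 2435 and 1978 bp) and for the CpG ratio (0.70 and 0.60) and to its left for GC content (50.9% and 54.1%).

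Short sequence motifs were searched on both strands in the central 300 bases of each region. A TATA box (TATAAA) was found in 37 of 433 selected regions (8.55%) and in 5.46% of eligible regions, an AP-1 site (TGANTCA) in 6.47% and 4.32%, and the NRF1 binding motif in 4.85% and 2.73%. The GC box (GGGCGG) was found in 43.0% and 44.6%, the CCAAT box (CCAAT) in 26.1% and 24.1%, the neuronal E-box (CAGATG) in 13.2% and 13.4%, and the cAMP response element (TGACGTCA) in 0.693% and 0.838%. In regions lost in Rosa alone the TATA box was found in 10.4%, the AP-1 site in 6.69% and the NRF1 motif in 1.15%. In those lost in Camk2a alone the shares were 5.80%, 4.32% and 3.05%. The centre of a region need not hold its start site, and a match is a match of letters and not a bound site.

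The highest region was that of Malat1, an abundant nuclear noncoding RNA (chr19:5795386-5802620, 7235 bp). It held 568, 581 and 563 CPM in Rosa single ChIP and 388, 375 and 380 CPM in Rosa tChIP, and in Camk2a 557, 578 and 545 CPM in single ChIP and 306, 320 and 313 CPM in tChIP. The log2 ratios were -0.58 and -0.84, with no overlap between tChIP and single ChIP in either line. Next, by the mean of single ChIP over both lines, came Cpeb2, a regulator of cytoplasmic polyadenylation (8225 bp, 451 ± 13.1 CPM in Rosa single ChIP and 303 ± 11.4 in Rosa tChIP), Smad7, an inhibitor of TGF-beta signalling (444 ± 2.12 and 346 ± 4.45 CPM), Spry2, an inhibitor of receptor tyrosine kinase signalling (372 ± 5.76 and 297 ± 15.2 CPM), and Mll5, a SET domain protein (376 ± 7.60 and 266 ± 9.22 CPM). Their Camk2a ratios were -0.47, -0.40, -0.41 and -0.69. Mll5 had the widest region of all (8387 bp), followed by Cpeb2 and by Ywhaz (7495 bp), a 14-3-3 adaptor protein gene, with ratios of -0.43 and -0.40. At the other end, the narrowest were a region 198 bp from Zmym5 (447 bp, ratios -0.48 and -0.43), an exon of Tagap1 (457 bp, -0.50 and -0.36) and the start of Kbtbd7 (468 bp, -0.87 and -0.46). Across the libraries these 3 narrow regions held 4.92 to 20.7 CPM.

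Families of genes for proteins that bind and splice RNA were listed after the values had been seen, so that their counts are a description. Of 20 eligible start regions of heterogeneous nuclear ribonucleoprotein (hnRNP) genes, which coat new transcripts, 7 were selected (35%, against 2.95% of eligible regions), namely Hnrnpa2b1, Hnrnpa3, Hnrnpc, Hnrnph1, Hnrnph3, Hnrnpk and Hnrnpu, and none was gained. Hnrnpu held 262, 257 and 267 CPM in Rosa single ChIP and 189, 196 and 196 CPM in Rosa tChIP, then 257, 254 and 243 CPM in Camk2a single ChIP and 174, 162 and 180 CPM in Camk2a tChIP. Its 6 tChIP libraries all lay below its 6 single ChIP libraries. Of 20 regions of serine/arginine-rich splicing factor genes 5 were selected (25%), among them Srsf3 (ratios -0.39 and -0.58), Srsf5 (-0.44 and -0.66) and Tra2b (-0.45 and -0.53). The median ratios of the family were -0.25 in Rosa and -0.26 in Camk2a for hnRNPs, and -0.26 and -0.33 for the splicing factors, against 0.04 and -0.02 for eligible regions. Of the RNA-binding motif protein genes 3 of 29 were selected (10.3%), and of the DEAD-box RNA helicase genes 2 of 33 (6.06%). Further genes of RNA processing among the 433 were Qk (-0.56 and -0.60), Son (-0.31 and -0.44), Clk1, a kinase of splicing factors (-0.47 and -0.58), and Luc7l3 (-0.38 and -0.36).

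Genes of translation were listed in the same way. Of 53 regions of translation initiation factor genes 5 were selected (9.43%), namely Eif1 (-0.59 and -0.47), Eif3e (-0.31 and -0.45), Eif4a1 (-0.36 and -0.57), Eif4a2 (-0.52 and -0.51) and Eif4g2 (-0.50 and -0.41). The cytosolic ribosomal protein genes were near the background, with 2 of 78 regions selected (2.56%, Rpl30 and Rps18, against 2.95% of eligible regions), and median ratios of -0.11 and -0.15. The chaperone genes Hspa8 (-0.52 and -0.75) and Hsp90ab1 (-0.35 and -0.45) and the elongation factor gene Eef1a1 (-0.45 and -0.50) were selected as well.

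Of 6 genes of 14-3-3 proteins, adaptors that bind phosphorylated partners, Ywhae and Ywhaz were selected, and in Camk2a the other 4 lay between -0.29 (Ywhaq) and -0.19 (Ywhah). Both genes of the replacement histone H3.3 were selected, H3f3a at -0.40 and -0.37 and H3f3b at -0.44 and -0.93. H3f3b held 88.8, 95.0 and 94.5 CPM in Rosa single ChIP and 64.5, 75.9 and 65.2 CPM in Rosa tChIP, then 87.7, 80.3 and 89.3 CPM in Camk2a single ChIP and 51.8, 40.3 and 42.8 CPM in Camk2a tChIP. The 3 Camk2a tChIP values were the lowest of all 12. Of 13 regions of Kruppel-like factor genes, zinc finger regulators, 4 were selected (Klf6, Klf9 and both of Klf7).

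**Figure D3:**
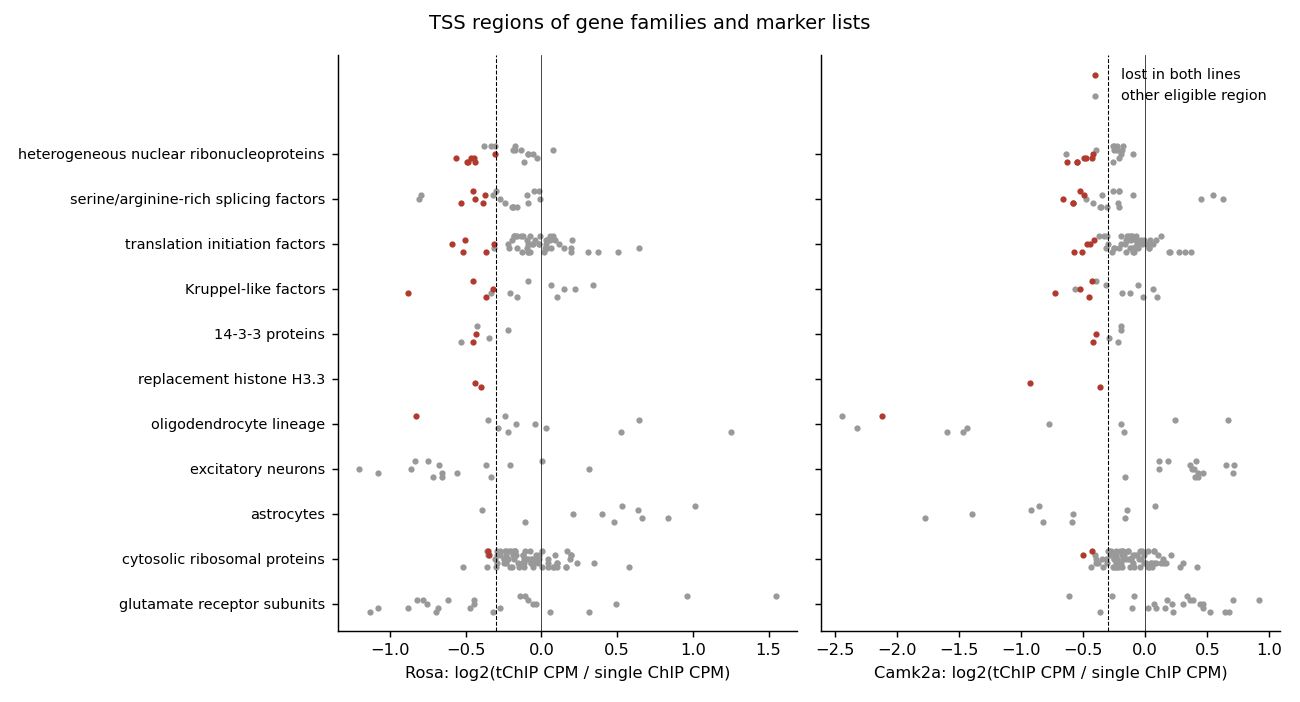
Log2 ratio of mean tChIP CPM to mean single ChIP CPM in Rosa (left) and Camk2a (right) for each eligible start region of 11 gene families and marker lists, with the selected regions in red and a dashed line at -0.3. Excitatory neuron genes lie mostly left of the line in Rosa and right of 0 in Camk2a, and astrocyte genes do the reverse. Glutamate receptor genes lie mostly right of 0 in Camk2a, and 13 of their 24 regions are past the limit in Rosa. No region of these 3 lists is selected.

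Gene lists drawn up for this tissue are given as counts beside the 2.95% of eligible regions that were selected. At that share most of the shorter lists would hold no selected region, so their counts of 0 do not set them apart. None was selected among 15 regions of excitatory neuron genes, 13 of inhibitory neuron genes, 10 of astrocyte genes, 8 of endothelial and mural cell genes, 1 of a microglia gene, 24 of glutamate receptor subunits, 13 of GABA receptor subunits, 30 of sodium and calcium channels, 68 of potassium channels, 6 of clustered protocadherins and 3 of Hox genes. Of the excitatory neuron regions 12 were past the limit in Rosa and none in Camk2a, and of the astrocyte regions 1 and 7. One each was selected among 54 regions of synaptic adhesion and cell surface genes (Gpm6a) and 22 of clustered histones (Hist2h2bb). More than 1 region was selected among immediate early genes (3 of 21, Ier5, Jun and Jund), neuronal transcription factors (3 of 35, Mef2c, Tcf4 and Zeb2), DNA and histone methylation enzymes (2 of 24, Mll5 and Setd2), nuclear genes of oxidative phosphorylation (4 of 79) and Zfp zinc finger genes (14 of 279, 5.02%). Jund, a subunit of AP-1, held 198 ± 2.73 CPM in Rosa single ChIP and 134 ± 3.36 in Rosa tChIP, and 189 ± 4.16 and 130 ± 3.79 CPM in Camk2a.

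Of the oligodendrocyte lineage list, 1 of 11 regions was selected, a 6315-bp region of Mbp (chr18:82723949-82730263), which codes for myelin basic protein. It held 78.3, 89.5 and 86.0 CPM in Rosa single ChIP and 43.8, 42.3 and 57.0 CPM in Rosa tChIP, and in Camk2a 75.9, 78.9 and 75.8 CPM in single ChIP and 16.1, 21.2 and 15.9 CPM in tChIP. No tChIP library overlapped a single ChIP library. A second start region of Mbp, 2596 bp wide, was not selected and had ratios of -0.35 in Rosa and 0.67 in Camk2a, so that the ratios of these 2 starts had opposite signs in Camk2a. Further genes known from oligodendrocytes were collected after their values had been seen, and 7 of 16 regions of that collection were selected, those of Aatk, Bcas1, Ermn, Mir219-2 and Omg among them. Sox10, the transcription factor of the oligodendrocyte lineage, entered through a region on its exons (chr15:78990030-78994913, 4884 bp). Regions of Mog (ratios -0.60 and -2.21), Mobp (-0.96 and -2.61) and Opalin (-0.67 and -1.42), genes of the lineage list, passed both ratio limits. They held fewer than 10 counts in at least 1 library and so were not eligible.

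Among regions without a start, the lowest limiting ratios belonged to a 520-bp region 43487 bp from Gm16675 (chr8:47772320-47772839, ratios -1.02 and -0.83), to a 4505-bp region 12374 bp from Chd2 (chr7:80699006-80703510) and to the Sox10 region. The region near Chd2, a chromatin remodeller gene, lay above the upper quartile of eligible regions (93.4 CPM in Rosa single ChIP). It held 269, 265 and 262 CPM in Rosa single ChIP and 147, 168 and 146 CPM in Rosa tChIP, then 254, 245 and 256 CPM in Camk2a single ChIP and 143, 145 and 152 CPM in Camk2a tChIP. The ratios, -0.79 and -0.78, were nearly the same in the lines, and the groups did not overlap. An exon region of Polr3e, which codes for a subunit of RNA polymerase III, was at -0.75 in Rosa and -1.65 in Camk2a, and the shorter start region of Nbr1, an autophagy receptor gene, was at -0.97 and -0.75.

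**Figure D4:**
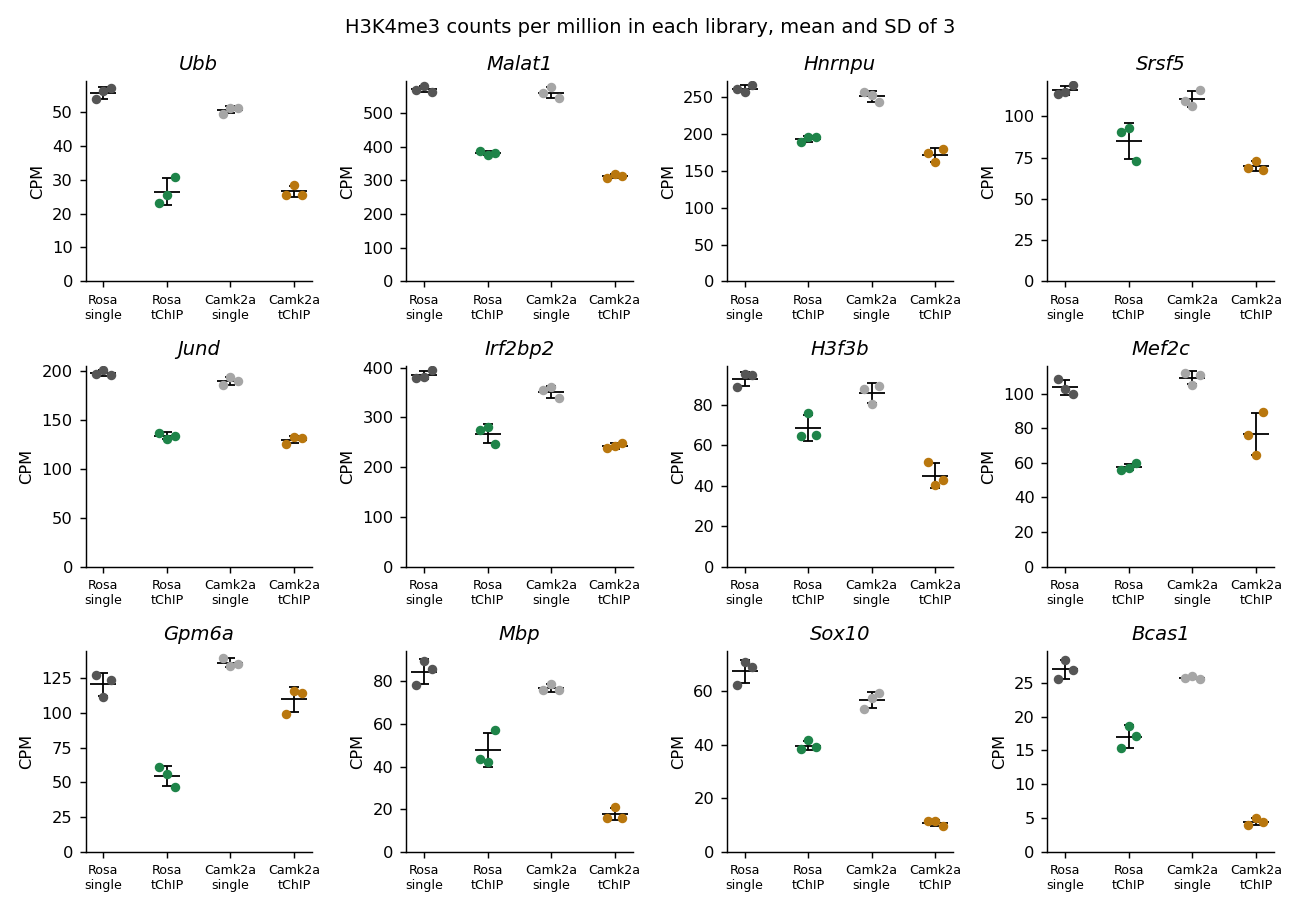
CPM in each library for 12 selected regions, with points for the 3 libraries of a group and bars for their mean and SD. In each panel the tChIP values lie below the single ChIP values of the same line, and Mbp, Sox10 and Bcas1 have their lowest values in Camk2a tChIP while Gpm6a and Mef2c have theirs in Rosa tChIP.

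Whether the lines differed was tested between Camk2a and Rosa, within tChIP and within single ChIP. The test was edgeR's quasi-likelihood test over all 17993 regions, with a Benjamini-Hochberg adjusted p under 0.01. These libraries also entered the selection, which required both ratios to be low and so limited how far the lines could be apart. In tChIP, 3062 regions (17%) were higher in Camk2a and 2620 (14.6%) lower, and of the 433 these were 12 (2.77%) and 18 (4.16%), shares that the selection limits. With library totals alone in place of TMM scaling, 6 of the 433 were higher and 36 lower, and without Rosa tChIP replicate 3 there were 7 and 19. In single ChIP, 167 regions (0.928%) were higher in Camk2a and 219 (1.22%) lower, and of the 433 these were 1 and 16. With library totals alone these became 2 and 6, with DESeq2 0 and 2, and without 1 library 0 to 1 and 6 to 12. As a set the 433 had a median single ChIP log2 fold change of -0.06, with 332 below 0 and 101 above. Over eligible regions the median was -0.01, with 7942 below 0 and 6737 above. In single ChIP, DESeq2 gave no adjusted p for some of the 433, Sox10 and Eif3e among them, and these could not count.

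The selected regions that were lower in Camk2a tChIP included genes known from glia, beginning here with the largest change. Il33, which in brain is made by oligodendrocytes and astrocytes, held 17.5, 17.4 and 16.5 CPM in Rosa tChIP and 4.26, 3.60 and 4.43 CPM in Camk2a tChIP, a fitted log2 change of -1.98 (SE 0.27, adjusted p = 1.51e-09). Aatk, a membrane kinase gene, held 19.1, 22.4 and 18.5 CPM in Rosa tChIP and 4.26, 5.04 and 5.54 CPM in Camk2a tChIP (log2 fold change -1.94, SE 0.25, adjusted p = 2.51e-10). Bcas1, a gene of newly myelinating oligodendrocytes, held 15.3, 18.7 and 17.2 CPM and 3.94, 5.04 and 4.43 CPM (log2 fold change -1.85, SE 0.27, adjusted p = 9.00e-09). In each of these genes the lines did not overlap in tChIP. The Camk2a tChIP values rest on 10 to 15 counts a library, just above the count minimum. In single ChIP the same regions had log2 fold changes of -0.09, -0.26 and -0.10 and did not pass (adjusted p = 0.68, 0.082 and 0.60).

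Sox2ot, a noncoding transcript around Sox2, had a fitted log2 change of -1.84 (SE 0.16, adjusted p = 3.61e-17), from 48.1, 57.2 and 42.6 CPM in Rosa tChIP to 13.4, 13.0 and 12.9 CPM in Camk2a tChIP. The Sox10 region followed with -1.79 (SE 0.17, adjusted p = 5.61e-15), from 38.3, 41.7 and 39.1 CPM to 11.5, 11.5 and 9.60 CPM. Ermn changed by -1.52 (SE 0.22, adjusted p = 1.30e-08) and Mbp by -1.34 (SE 0.15, adjusted p = 4.80e-12). Mir219-2, a microRNA locus of oligodendrocyte maturation, changed by -1.65. The regions of Polr3e (-0.997), H3f3b (-0.53, SE 0.11, adjusted p = 5.53e-05) and Malat1 (-0.21, SE 0.05, adjusted p = 6.49e-05) were lower too. With the selected start regions of both oligodendrocyte lists left out, 12 regions were lower and 11 higher. The Sox10 region overlaps no start, so it was not left out and still counts among the lower ones. Of the 11 start regions of the oligodendrocyte lineage list, the selected Mbp region included, 8 were lower and 1 higher in Camk2a tChIP. Other lists fell too. Of 10 astrocyte regions 8 were lower and 1 higher, and of 13 inhibitory neuron regions 9 were lower and 1 higher. Of 8 endothelial and mural cell regions 7 were lower and none higher. The part of cell composition in these differences was not tested.

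Of the regions higher in Camk2a tChIP, Gpm6a changed most. It held 60.7, 56.0 and 46.7 CPM in Rosa tChIP and 99.0, 116 and 114 CPM in Camk2a tChIP, or 1.06 log2 units more (SE 0.10, adjusted p = 4.63e-16). In single ChIP it held 127, 111 and 123 CPM in Rosa and 140, 134 and 135 CPM in Camk2a (log2 fold change 0.15, adjusted p = 0.029). Its Rosa ratio of -1.15 was the lowest of the 433, and its Camk2a ratio of -0.31 was near the limit. Mef2c, a transcription factor of excitatory neurons, held 55.8, 57.2 and 59.7 CPM in Rosa tChIP and 76.1, 64.8 and 89.3 CPM in Camk2a tChIP (log2 fold change 0.49, SE 0.11, adjusted p = 8.90e-05), without overlap. Omg, a myelin glycoprotein gene that neurons also use, was higher by 0.52 (SE 0.15, adjusted p = 0.0041), a call that was lost in 5 of 12 alternative settings. Calm2 was higher by 0.37 (SE 0.06, adjusted p = 7.65e-07), from 164, 174 and 154 CPM to 200, 192 and 214 CPM. Pdp1, at the boundary of the set, was higher by 0.34 (SE 0.08, adjusted p = 0.00017). The 15 excitatory neuron regions, none of them selected, moved alongside, with 13 of them higher in Camk2a tChIP.

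**Figure D5:**
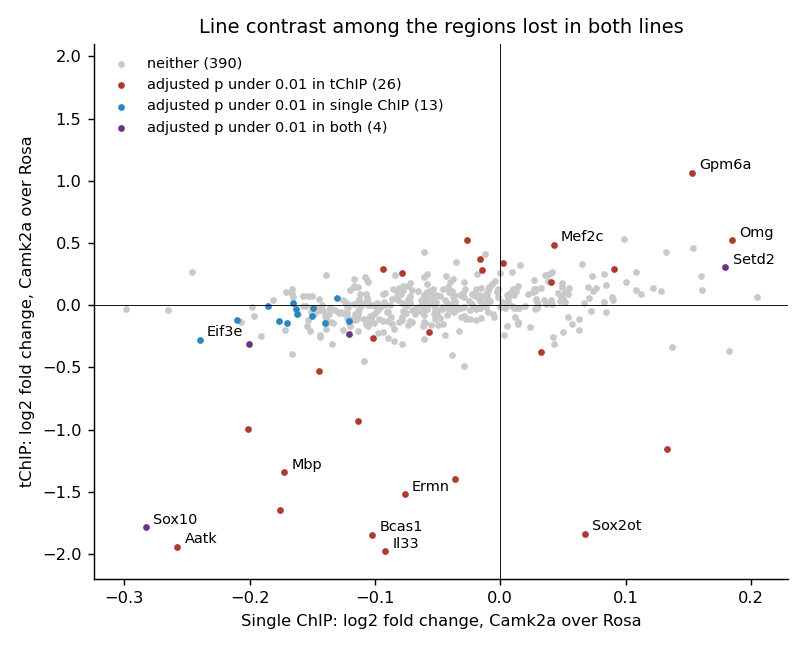
Log2 fold change of Camk2a over Rosa in single ChIP (horizontal) and in tChIP (vertical) for the 433 selected regions, coloured by whether the adjusted p was under 0.01 in tChIP (26), in single ChIP (13), in both (4) or in neither (390). The tChIP axis spans -1.98 (Il33) to 1.06 (Gpm6a), and the regions labelled by name lie between -0.28 (Sox10) and 0.19 (Omg) in single ChIP.

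Differences between lines in single ChIP were small, and the median log2 fold change over the 433 was itself -0.06. The Sox10 region held 62.5, 70.9 and 69.0 CPM in Rosa and 53.3, 57.6 and 59.3 CPM in Camk2a (log2 fold change -0.28, SE 0.07, adjusted p = 0.0043), and Eif3e held 80.4, 73.9 and 76.1 CPM and 68.8, 67.6 and 62.3 CPM (log2 fold change -0.24, SE 0.06, adjusted p = 0.0085). Setd2, the histone H3 lysine 36 methyltransferase gene, was the 1 region that was higher, with 155, 154 and 163 CPM in Rosa and 181, 192 and 172 CPM in Camk2a (log2 fold change 0.18, SE 0.04, adjusted p = 0.0028). It was also higher in tChIP (0.31, SE 0.07, adjusted p = 0.00044), a call that was lost in 1 of 12 alternative settings. The single ChIP call for Eif3e held in 1 of 12 alternative settings, that for Sox10 in 6 and that for Setd2 in 8. For Eif3e and Sox10 the DESeq2 setting gave no adjusted p, so their calls could not be checked there. Smad7 was lower by a log2 change of -0.15 (adjusted p = 0.000147), a call that held in each of the 12 alternative settings. Irf2bp2, whose promoter sequence is given above, was also among the 16 lower regions, at 385 ± 8.36 CPM in Rosa and 351 ± 11.8 CPM in Camk2a (SD, n = 3), a log2 change of -0.16.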

How the data were processed

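The 12 H3K4me3 libraries were used, and 12 input and FLAG ChIP libraries were not analysed here. Per the study's methods and the submitters' processing notes, reads of 80 nt were freed of repeats (Bowtie2 2.1.0), aligned to mm9 (Bowtie 1.0.0), stripped of duplicates (SAMtools, 0.1.19 in the notes) and counted over reproducible peaks (bedtools 2.17.0). Removing duplicates can lower the tallest regions of the deepest libraries. The authors deposited raw counts per region. CPM used the sum over all 17993 regions. Genes came from GENCODE M1 and sequence from NCBIM37. Line contrasts used edgeR 4.0.16 (R 4.3.3) with TMM scaling, 6 libraries a fit, an adjusted p under 0.01 and a fit tested on simulated data, with DESeq2 1.42.0 as an alternative.

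The regions and gene lists (21, and 9 added after seeing values) were chosen with earlier results of these data known. Named regions were the 8 with the lowest higher ratio, the 5 tallest, the 3 widest and 3 narrowest, the strongest line contrasts without overlap (up to 4 each way in tChIP, 2 in single ChIP), 3 without a start, 2 on each side of the limit, and up to 3 at each marker list. Others were named after their values were seen. Ratios below the limit, and regions gained or lost in 1 line, were described without a test. A few genes are not reported here.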

Additional observations from a re-analysis of the deposited data

How the results depend on the processing

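The number of selected regions was 418 to 455 when 1 library was left out, 840 with TMM factors and 46 at a limit of -0.5. At -0.5 the median width was 2286 bp and the median GC content 50.1%. With at least 20 counts in each library, 404 regions remained of the 433, with a median width of 2486 bp, 91.6% over a start and a median CpG ratio of 0.70.

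In tChIP, the 12 higher regions became 6 with DESeq2, 6 with library totals alone, 22 at an adjusted p under 0.05 and 7 to 12 without 1 library (7 without Rosa tChIP replicate 3). The 18 lower regions became 36 with library totals alone, 28 at 0.05 and 16 to 19 without 1 library. In single ChIP, the 1 higher region became 0 with DESeq2, 2 with library totals alone, 2 at 0.05 and 0 to 1 without 1 library (0 without Camk2a replicate 1 or 2 or Rosa replicate 2). At an unadjusted p under 0.05, DESeq2 had 2 regions there and edgeR 7. The 16 lower regions became 2 with DESeq2, 10 with all 12 libraries in 1 fit, 7 with 10 or more counts in each library, 6 with library totals alone, 45 at 0.05 and 6 to 12 without 1 library (8 and 6 without Camk2a replicates 1 and 2, 7 without Rosa replicate 2 or 3). The cause of these shifts was not tested. In single ChIP, DESeq2 gave no adjusted p for some selected regions, Sox10 and Eif3e among them, and its counts at an adjusted p leave these out. With a replicate block the counts were 13 and 18 in tChIP and 1 and 20 in single ChIP. Same-numbered libraries of the lines came from different animals and their deviations correlated at 0.001 to 0.023 in tChIP and -0.003 to 0.009 in single ChIP, so the numbers do not pair them. Regions with 10 to 15 counts in a tChIP library allow large differences alone to be detected.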

Other observations

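The autosomal limit left out chromosome X, where 38 of 472 regions with 10 or more counts in each library (8.05%) were at or under -0.3 in both lines, 36 of them over a protein-coding start. Tmsb4x, which codes for an actin-sequestering thymosin, had the lowest limiting ratio there (-0.78 in Rosa and -0.66 in Camk2a), followed by Ogt, the O-linked N-acetylglucosamine transferase gene (-0.71 and -0.54). Ddx3x, an RNA helicase gene, was at -0.45 and -0.64. The median CpG ratio of these 38 regions was 0.65 and their median width 1818.5 bp.

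On chromosomes 1 to 19, 86 regions with fewer than 10 counts in at least 1 library also had both ratios at or under -0.3, of which 14 lay over a protein-coding start. Their median width was 487 bp and their median CpG ratio 0.30. They included regions of Mog, Mobp and Opalin from the oligodendrocyte lineage list and of Csf1r and C1qc from the microglia list.

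The tall intergenic region 12374 bp from Chd2 has no start in GENCODE M1. RefSeq's gene table for GRCm38 lists the long noncoding gene Chaserr on the same chromosome, and whether the region covers its start was not tested.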
